A study of Caenorhabditis elegans with 15 samples.

Results

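The PRCC deletion was compared directly with the PRCC point mutation, to ask whether losing the whole protein and changing 1 residue shift the same splice sites. The comparison used the 3 libraries of strain SZ356, PRCC(null), and the 3 libraries of strain SZ346, PRCC(I371F), which are 6 of the 15 mRNA libraries of the series. PRCC(null) is prcc-1(gk5556), in which a knockout consortium replaced the whole coding region with a cassette that carries a GFP marker and a neomycin resistance gene. PRCC(I371F) is prcc-1(az122), an isoleucine to phenylalanine change made by CRISPR/Cas9 genome editing. Both strains also carry smg-4(az152), a null allele that disables nonsense-mediated decay, so that transcripts with a shifted reading frame are kept. The other libraries come from KIN17(M107I), KIN17(K23N) and the smg-4 control, 3 each, which carry the same smg-4 allele. The KIN17 strains also carry alleles of unc-73, unc-73(az63) with dxbp-1(az52) in KIN17(M107I) and unc-73(e936az30) with dxbp-1(az121) in KIN17(K23N), which the control and the PRCC strains lack. They are given here as levels, and the control also decided which sites count as rarely used. All RNA came from whole worms of mixed stages grown at 20 °C.

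The spliceosome removes introns, whose 5' ends nearly all start with GU. U1 snRNP finds the 5' splice site first and then hands it over to U6 snRNA as the spliceosome is activated. PRCC has been found in the activated complex, known as Bact, and KIN17 in a short-lived complex that precedes it. A small slip of the 5' splice site during this handover moves the start of the intron by a few nucleotides, and most such slips shift the reading frame.

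For each event, the deposited tables give PSI, the percentage of transcripts that use one of 2 alternative forms. PSI of a 5' event is the use of the downstream 5' site, PSI of a 3' event is the use of the upstream 3' site, and intron length is counted from the upstream 5' site. Of 40212 events, 32644 had a PSI in all 6 libraries. They were 16967 5' events and 13286 3' events, each with sites at most 50 nt apart, and 2391 annotated events of 6 other classes. Read counts are not part of the tables. The depth under a PSI is therefore unknown, and single libraries have no interval. They hold no gene expression either, so the loss of prcc-1 mRNA in PRCC(null) and the mixture of stages could not be checked, and no event could be placed in prcc-1.

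The libraries differed in how often PSI stood at an end of its scale. Among 5' events, 33.2% to 35.2% of the values were at 0 or 100% in PRCC(null) libraries and 38.2% to 42.0% in PRCC(I371F) libraries. Among 3' events the share was 39.1% to 41.4% in PRCC(null) and 42.6% to 45.6% in PRCC(I371F), again without overlap. For annotated events the ranges overlapped, at 27.8% to 28.9% in PRCC(null) and 27.4% to 30.5% in PRCC(I371F). The mean absolute difference in 5' PSI was 5.97 to 6.23 points between libraries of the 2 strains. It was 5.38 to 5.55 points within PRCC(null) and 5.54 to 5.66 points within PRCC(I371F). For 3' events it was 5.36 to 5.93 points between strains, which overlapped the 5.37 to 5.53 points within PRCC(I371F). The library numbers are 27 to 29 for PRCC(null) and 7 to 9 for PRCC(I371F), so strain and numbered set cannot be told apart.

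The 5' splice sites of genes described below show which shifts were compared. Each line starts at the first intron base from the upstream site, and capitals mark the first bases of the intron from the downstream site. The sequences are those printed in the study's event list, for genes in long introns first (col-3, ani-1, gip-1, ZK637.14, W07E6.2, M60.6 and spas-1) and then in short introns.
col-3: gttaGTtctata
ani-1: gtttGTttgtttt
gip-1: gTTagtgggggtt
ZK637.14: gtGTgaagattta
W07E6.2: gtGCaggaaaatc
M60.6: gtGTgaccgtatt
spas-1: gtGTttagtttggtt
T21H3.9: gTTagttatttag
mans-3: gTTggatatattc
pept-2: gGTtgttattgat
cbs-1: gGTaggaaatggg
nhr-142: gtaaGTacataat
F40A3.1: gcagGTaattcaa
In gip-1, T21H3.9 and mans-3 the downstream site starts with UU in the RNA and the upstream site with GU. In pept-2 and cbs-1 it is the downstream site that starts with GU. In F40A3.1 the upstream site starts with GC and the downstream site with GU.

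Use of downstream 5' sites was higher in PRCC(null) than in PRCC(I371F) in long introns, of 100 nt or more. This was most direct at sites that the smg-4 control hardly uses. Among events scored in all 15 libraries, those with a downstream site used under 10% in the control were averaged within each library. The 10% limit used neither PRCC strain. The authors found the events, however, in the reads of all libraries together. A site hardly used in the control may therefore have entered through the strain that uses it more, which can favour that strain in the counts. The averages describe introns, which are not replicates, and no test was made on them. For sites 1 nt apart in long introns (842 events), the mean use was 5.88%, 5.62% and 5.87% in PRCC(null) and 3.49%, 3.86% and 3.76% in PRCC(I371F). The KIN17(M107I) and KIN17(K23N) libraries averaged 0.864% and 1.01%, and the control 0.226%. All 3 PRCC(null) libraries lay above all 3 PRCC(I371F) libraries, and 659 of the 842 events had the higher mean in PRCC(null) against 180 in PRCC(I371F).

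The same order held for sites 2, 3, 4 and 5 nt apart in long introns. At 2 nt (202 events) the mean use was 11.1%, 10.8% and 10.4% in PRCC(null) and 6.77%, 6.96% and 7.64% in PRCC(I371F). At 3 nt, where the reading frame is kept (296 events), it was 5.12%, 4.66% and 5.03% in PRCC(null) and 2.59%, 2.88% and 2.75% in PRCC(I371F). At 4 nt (1007 events) it was 2.77%, 2.70% and 2.99% in PRCC(null) and 0.959%, 1.19% and 1.10% in PRCC(I371F). At this distance 857 of its events were higher in PRCC(null) against 141 lower. At 5 nt (207 events) the values were 2.92%, 3.35% and 3.07% in PRCC(null) and 1.52%, 1.59% and 1.30% in PRCC(I371F). The order was not limited to short distances. At 6 to 9 nt (163 events) it was 4.37% to 6.08% in PRCC(null) and 2.90% to 3.66% in PRCC(I371F). At 10 to 24 nt (386 events) it was 4.53% to 4.62% against 3.21% to 4.17%, and at 25 to 50 nt (423 events) 4.66% to 5.48% against 4.39% to 4.58%.

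**Figure D1:**
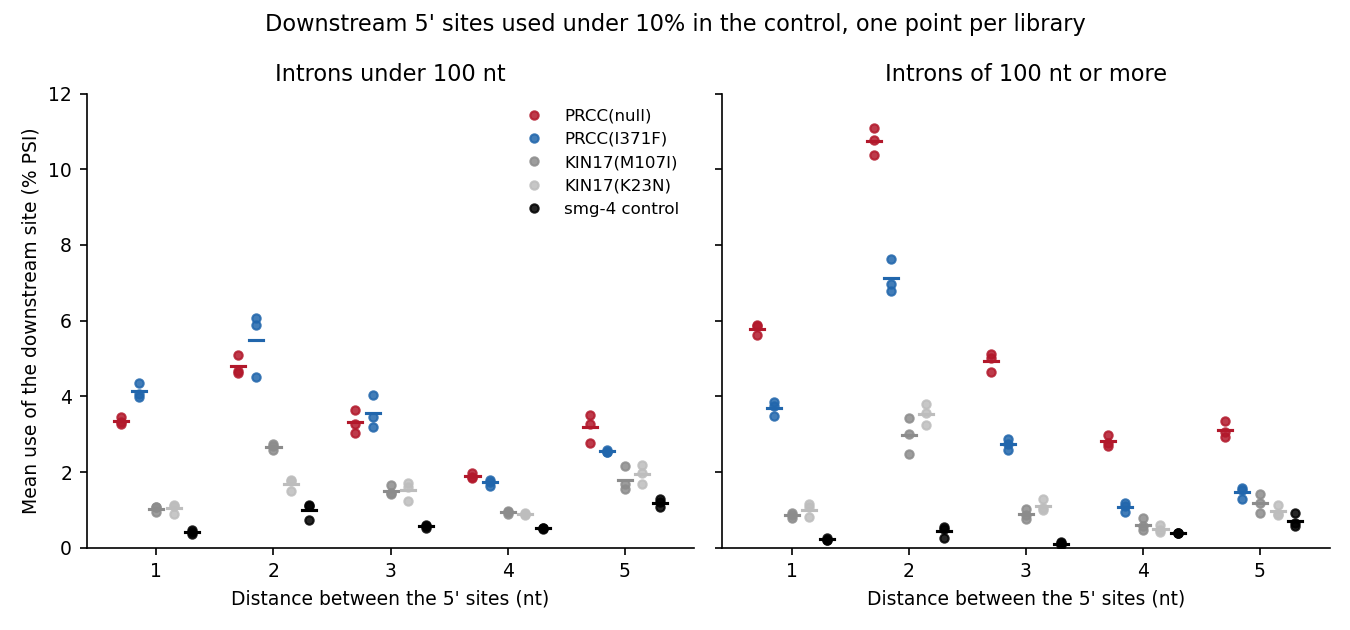
Mean use of the downstream 5' site in each library, in % PSI, at sites used under 10% in the smg-4 control and scored in all 15 libraries, by the distance between the sites in nt, for introns under 100 nt (left) and of 100 nt or more (right). Points are libraries and bars are means of 3. In long introns the 3 PRCC(null) libraries lie above the 3 PRCC(I371F) libraries at every distance, for example at 5.62% to 5.88% and 3.49% to 3.86% for 1 nt.

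In short introns, under 100 nt, the order depended on the distance. At 1 nt (1123 events) the mean use was lower in PRCC(null), at 3.46%, 3.28% and 3.31%, than in PRCC(I371F), at 3.99%, 4.36% and 4.05%. Here 637 events had the lower mean in PRCC(null) and 474 the higher. At 2 nt and at 3 nt the libraries of both strains overlapped. At 4 nt (2495 events) PRCC(null) was higher by 0.179 points, with 1.88%, 1.85% and 1.99% in PRCC(null) and 1.64%, 1.79% and 1.74% in PRCC(I371F). In introns under 60 nt (2144 events) the ranges for 4 nt overlapped, while at 60 to 99 nt (351 events) they were 2.36% to 2.77% in PRCC(null) and 1.47% to 1.63% in PRCC(I371F). At 5 nt (300 events) PRCC(null) was again higher, at 2.78%, 3.52% and 3.26% against 2.53%, 2.58% and 2.54% in PRCC(I371F), and at 6 to 9 nt (279 events) at 4.18% to 4.46% against 3.92% to 4.17%.

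Sites rarely used on the upstream side did not follow the same pattern. Where the control used the upstream site under 10%, its mean use in long introns overlapped between the strains at each distance of 1 to 5 nt. In short introns at 1 nt (982 events) it was lower in PRCC(null), at 1.53%, 1.39% and 1.68%, than in PRCC(I371F), at 1.76%, 1.91% and 1.91%. At 5 nt (152 events) it was higher in PRCC(null), at 2.08% to 2.73% against 1.79% to 1.95%. The larger share of values at 0 or 100% in PRCC(I371F) libraries moved with the long-intron difference, and its part in it was not tested.

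**Figure D2:**
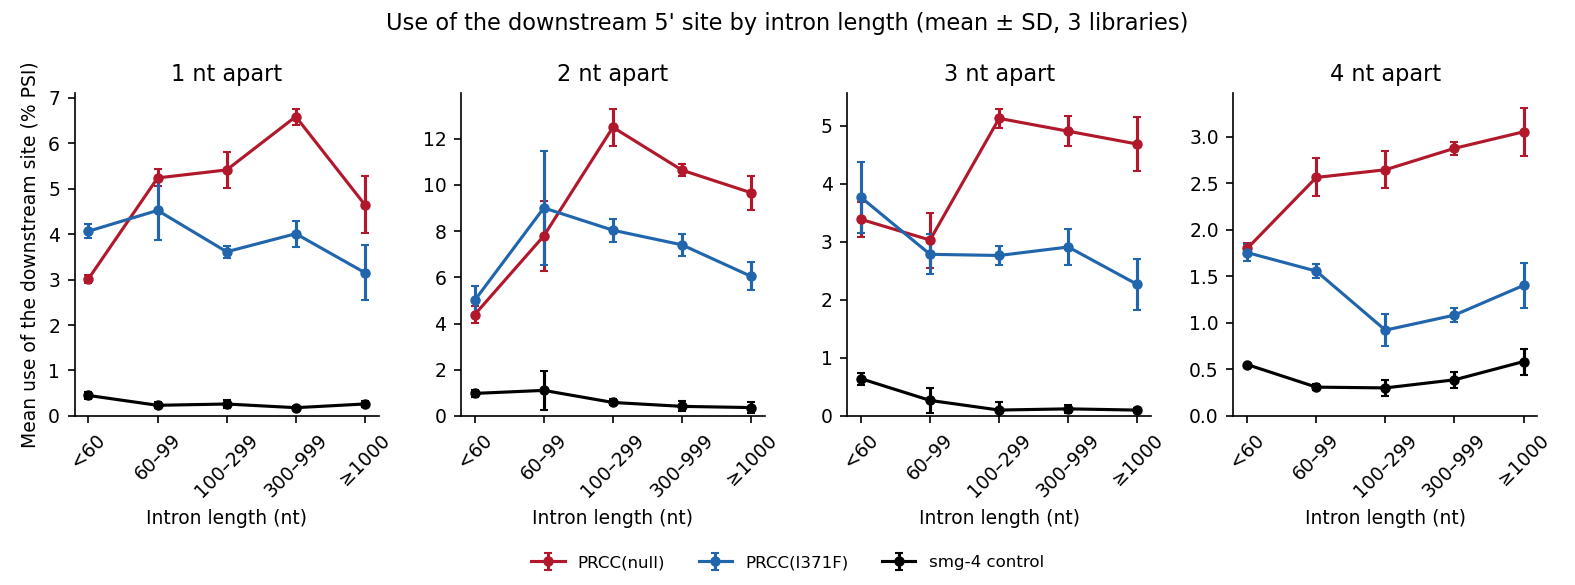
Mean use of the downstream 5' site (% PSI, mean ± SD of 3 libraries) by intron length in nt, at sites used under 10% in the smg-4 control, for sites 1, 2, 3 and 4 nt apart. The vertical scales differ between panels. PRCC(null) and PRCC(I371F) cross at 1 nt between introns under 60 nt (3.02% and 4.07%) and introns of 300 nt to under 1000 nt (6.59% and 4.01%).

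Single 5' events were then tested with limma, which fits all events together, on the log-odds of PSI. In the 6 libraries 16578 5' events varied and 187 (1.13%) passed at an adjusted p under 0.05. The downstream site was used more in PRCC(null) at 117 of them (0.706% of those tested) and less at 70 (0.422%). Of these, 37 (0.223%) also differed by over 20 points, 15 with higher use in PRCC(null) (0.0905%) and 22 with lower use (0.133%). On simulated 5' events the fit over all events called more unchanged events than its adjusted p allows. Calls from such fits, here and below, may therefore hold more false ones than the threshold implies. An unadjusted p under 0.05 was reached by 1894 events, of which 1369 were higher in PRCC(null).

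These calls fell mostly on events at an end of the scale. All 3 libraries of PRCC(null) or all 3 of PRCC(I371F) stood at the same end, 0 or 100%, at 36 of the 37 events, and 1 event, in col-3, lay between 0 and 100% in all 6 libraries. An example is the 5' event on chromosome II at 9320090 to 9320272 (ce10, plus strand, 3 nt), with a PSI of 80.0%, 75.0% and 50% in PRCC(null) and 0% in each PRCC(I371F) library. Another is on chromosome X at 16930178 to 16930450 (plus strand, 5 nt), with 0%, 0% and 16.7% in PRCC(null) and 100% in each PRCC(I371F) library. Without PRCC(null) replicate 3 the count of 37 was 7, and without PRCC(null) replicate 1 it was 69. On untransformed PSI no event passed.

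The study's own criterion asks that all 9 differences between libraries exceed 15 points in one direction and that their mean exceeds 20. It was passed by 120 5' events (0.707% of 16967), 66 with higher use of the downstream site in PRCC(null) (0.389%) and 54 with lower use (0.318%). Both this criterion and limma were passed by 31 events (0.187%), 13 higher in PRCC(null) and 18 lower. The criterion is no test, and with any 1 library left out, which leaves fewer differences to pass, 214 to 286 events passed.

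When the fit was limited to the 4104 5' events between 0 and 100% in all 6 libraries, 198 passed (4.82%). The downstream site was used more in PRCC(null) at 170 (4.14%) and less at 28 (0.682%). Such events need some use of both sites in each strain, so they are not a sample of all 5' events. Leaving out a library cut this count to 2, 20 and 1 (PRCC(null) replicates 1, 2 and 3) and to 1, 2 and 5 (PRCC(I371F) replicates 1, 2 and 3). A fit of all 15 libraries, in which all strains share 1 estimate of the spread, tested 14924 5' events and called 1237 (8.29%), 1022 higher in PRCC(null) (6.85%) and 215 lower (1.44%). Control and KIN17 libraries that hardly use a site lower this estimate there, and libraries that vary widely raise it. Calls are therefore easier to reach at sites that only the PRCC strains use. With 1 PRCC library left out this fit called 1165 to 1339 events. It shares the 6 libraries with the smaller fit, and 167 of the 198 events passed in both, in the same direction.

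The calls were then counted by intron length and by distance. In introns of 100 nt or more with sites 1 to 4 nt apart, of 890 events between 0 and 100%, 103 (11.6%) passed and all 103 had higher use of the downstream site in PRCC(null), 31 at 1 nt, 16 at 2 nt, 16 at 3 nt and 40 at 4 nt. The share that passed over all 4104 was 4.82%. Of the 890 events, called or not, 691 had the higher mean in PRCC(null) and 199 the lower. In the 15-library fit 3260 such events were tested, with 556 higher in PRCC(null) and 22 lower (17.7%, beside 8.29% over all 5' events). Over all events that varied in the 6 libraries, 48 were higher and 8 lower of 3532 tested (1.59%, beside 1.13%). By the study's criterion 10 were higher and 6 lower of 3585, with 1 higher and 3 lower at 1 nt. That share, 0.446%, was below the 0.707% over all 5' events. In short introns at these distances 51 were higher and 23 lower of 1798 tested between 0 and 100% (4.12%). At 1 nt alone 9 were higher and 13 lower. In the 15-library fit, short introns had 360 higher and 155 lower of 6268 tested (8.22%). At 10 to 24 nt, over introns of any length, 2 events were higher and 2 lower of 483 tested between 0 and 100% (0.828%).

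**Figure D3:**
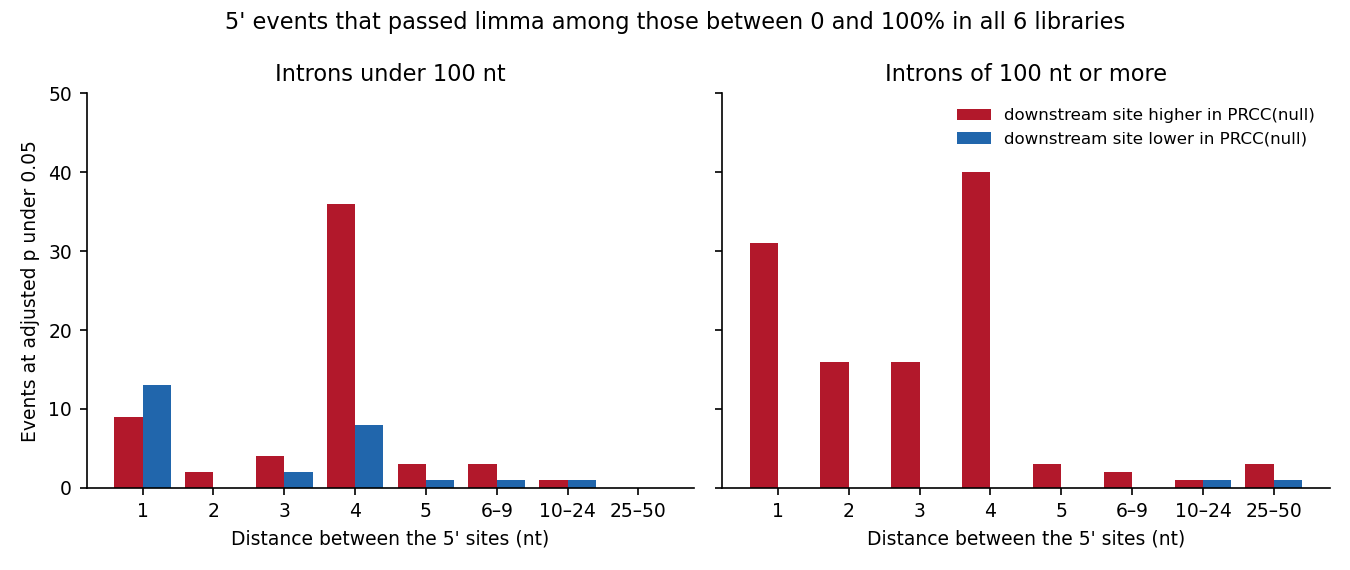
Number of 5' events that passed limma (adjusted p under 0.05) among the 4104 between 0 and 100% in all 6 libraries, by distance between the sites in nt and intron length. The bars show events whose downstream site was used more and less in PRCC(null). In introns of 100 nt or more all 103 events at 1 to 4 nt were higher in PRCC(null), against 51 higher and 23 lower in introns under 100 nt. Of the 890 long-intron events tested at these distances, called or not, 691 had the higher mean in PRCC(null) and 199 the lower.

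Intron length followed the direction of the difference. Among events between 0 and 100%, the median intron was 247 nt (quartiles 60 and 675) where PRCC(null) used the downstream site more and 51 nt (quartiles 48 and 54.5) where it used it less, beside 66 nt over the 4104 tested. In the 15-library fit the medians were 172.5 nt and 52 nt, beside 68 nt over those tested. Among the 37 events past 20 points they were 259 nt for the 15 higher and 156.5 nt for the 22 lower. The second of these was 68 to 180 nt with 1 library left out, and the first 107.5 to 553.5 nt.

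The event that passed every criterion and lay between 0 and 100% was in col-3, a cuticle collagen gene (chromosome IV, 8824814 to 8825215, plus strand, sites 4 nt apart, intron of 259 nt). The downstream site was used at 22.2%, 23% and 23.1% in PRCC(null) and at 1.13%, 1.46% and 1.36% in PRCC(I371F). The control averaged 0.0563%. The 21.4 point difference passed limma over the 6 libraries (adjusted p = 0.0228), and the exact two-sided permutation test gave 0.1, the smallest p that 3 against 3 libraries allow. The limma adjusted p was 0.00285 among events between 0 and 100% and 4.34e-07 with 15 libraries. The spread in the 15-library fit includes control and KIN17 libraries, in which the site was hardly used. The event passed in the 6-library fit without PRCC(null) replicate 1 and not when any other library was left out, with differences of 21.2 to 21.7 points throughout, nor on untransformed PSI.

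The col-3 intron also had a downstream site 1 nt away, used at 7.62%, 6.58% and 8.29% in PRCC(null) and at 0.478%, 1.24% and 1.22% in PRCC(I371F). An intron of the same length, 259 nt, on the opposite strand nearby (chromosome IV, 8823744 to 8824139) had a 4 nt event with 15.4%, 18.8% and 20.8% in PRCC(null) and 0.952%, 1.39% and 1.07% in PRCC(I371F). A plus-strand 3' event lies over the same stretch (8823745 to 8824137). It had a PSI of 66.7%, 50% and 27.8% in PRCC(null) and 0% in each PRCC(I371F) library. Its sites are also 4 nt apart, and its introns of 259 and 255 nt have the lengths of those of the minus-strand event. It may therefore be the same shift read on the other strand and not a choice of 3' site, which was not tested. The counts of 3' events below include it. These neighbours were chosen after their values were seen. Collagen genes have near-identical copies, so reads may be shared between them, which makes the separate values uncertain.

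Other genes in the study's list of 5' events for the PRCC strains passed among events between 0 and 100%, and their choice for naming followed from these results. The study chose the list on these libraries, so it is no independent evidence. Most such calls need all 6 libraries, as the counts with a library left out show. Long introns come first. W07E6.2 (chromosome II, 483036 to 483720, minus strand, 2 nt, intron of 551 nt) had a downstream use of 61.5%, 50% and 59.6% in PRCC(null) and 32.9%, 29.4% and 32.7% in PRCC(I371F), with 0% in each control library (limma adjusted p = 0.0427). ZK637.14 (chromosome III, 8888049 to 8889836, plus strand, 2 nt, intron of 1649 nt) had 47.7%, 46.6% and 45.7% in PRCC(null) and 17.9%, 23% and 24.1% in PRCC(I371F) (limma adjusted p = 0.0311). In both genes all PRCC(null) libraries stood above all PRCC(I371F) libraries, and neither passed in the fit over all 16578 events.

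ani-1, which encodes the anillin that organises the contractile ring, had a 4 nt shift in a 746 nt intron (chromosome III, 12447191 to 12448070, minus strand). Its downstream site was used at 24.3%, 18.2% and 22.2% in PRCC(null) and at 4.89%, 7.63% and 2.86% in PRCC(I371F) (limma adjusted p = 0.0301). gip-1, which encodes a subunit of the gamma-tubulin complex, had a 1 nt shift to UU in a 766 nt intron (chromosome III, 2360999 to 2361898, plus strand). Its values were 15.4%, 17.8% and 19.8% in PRCC(null) and 4.04%, 3.66% and 8.47% in PRCC(I371F) (limma adjusted p = 0.0382). The chromosome I genes of this kind in long introns were higher in PRCC(null) by 10.6 to 17.4 points. They were mrpl-38 (a mitochondrial ribosomal protein), trak-1 (a motor adaptor), zoo-1 (a cell junction protein), tag-229 and tdpt-1 (a DNA repair enzyme). In all of these long introns the libraries of the 2 strains did not overlap. Choosing events that passed limma largely sets this, here and in W07E6.2 and ZK637.14.

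In short introns the listed genes split by which site the control uses. mans-3, an alpha-mannosidase gene (chromosome X, 5165578 to 5165759, plus strand, 1 nt, intron of 48 nt), had a downstream use of 9.43%, 6.86% and 8.16% in PRCC(null) and 22.1%, 25.6% and 22.2% in PRCC(I371F), beside 0% to 0.806% in the control (limma adjusted p = 0.0265). nhr-142, a nuclear hormone receptor gene (chromosome V, 5787606 to 5787790, minus strand, 4 nt, intron of 51 nt), had 5.88%, 14.8% and 14.6% in PRCC(null) and 41.0%, 46.3% and 44.7% in PRCC(I371F), beside 5.26% to 11.9% in the control (limma adjusted p = 0.0301). In rad-54.L, a DNA recombination gene, and frm-4, both with 1 nt shifts in 47 nt introns, PRCC(null) was lower by 19.3 and 10.3 points.

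The downstream site is the one the control uses in pept-2, cbs-1 and F40A3.1, and there it was used more in PRCC(null). pept-2, a peptide transporter gene (chromosome IV, 10792913 to 10793090, plus strand, 1 nt, intron of 45 nt), had 69.5%, 73.2% and 72.1% in PRCC(null) and 41.4%, 39.5% and 44.7% in PRCC(I371F), against 95.2% to 99% in the control (limma adjusted p = 0.0265). cbs-1, which encodes a cystathionine beta-synthase (chromosome X, 10054874 to 10055050, plus strand, 1 nt, intron of 44 nt), had 86.6%, 88.5% and 84.1% in PRCC(null) and 61.9%, 64.2% and 67.4% in PRCC(I371F), against 100% in each control library (limma adjusted p = 0.0295). F40A3.1 (chromosome V, 7894478 to 7894654, plus strand, 4 nt, intron of 47 nt) had 92.9%, 93.5% and 92.2% in PRCC(null) and 74.2%, 82.5% and 70.9% in PRCC(I371F) (limma adjusted p = 0.0311). At these 7 short introns the mean of PRCC(null) was nearer to the control than that of PRCC(I371F), and at the long introns it was farther away. All of the short introns except pept-2 were listed for PRCC(I371F) alone. The named long introns, except W07E6.2 and ZK637.14, were listed for PRCC(null) alone. A gene listed for only 1 strain and chosen because the strains differ will mostly lie farther from the control in that strain. The choice of genes therefore largely set this pattern.

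**Figure D4:**
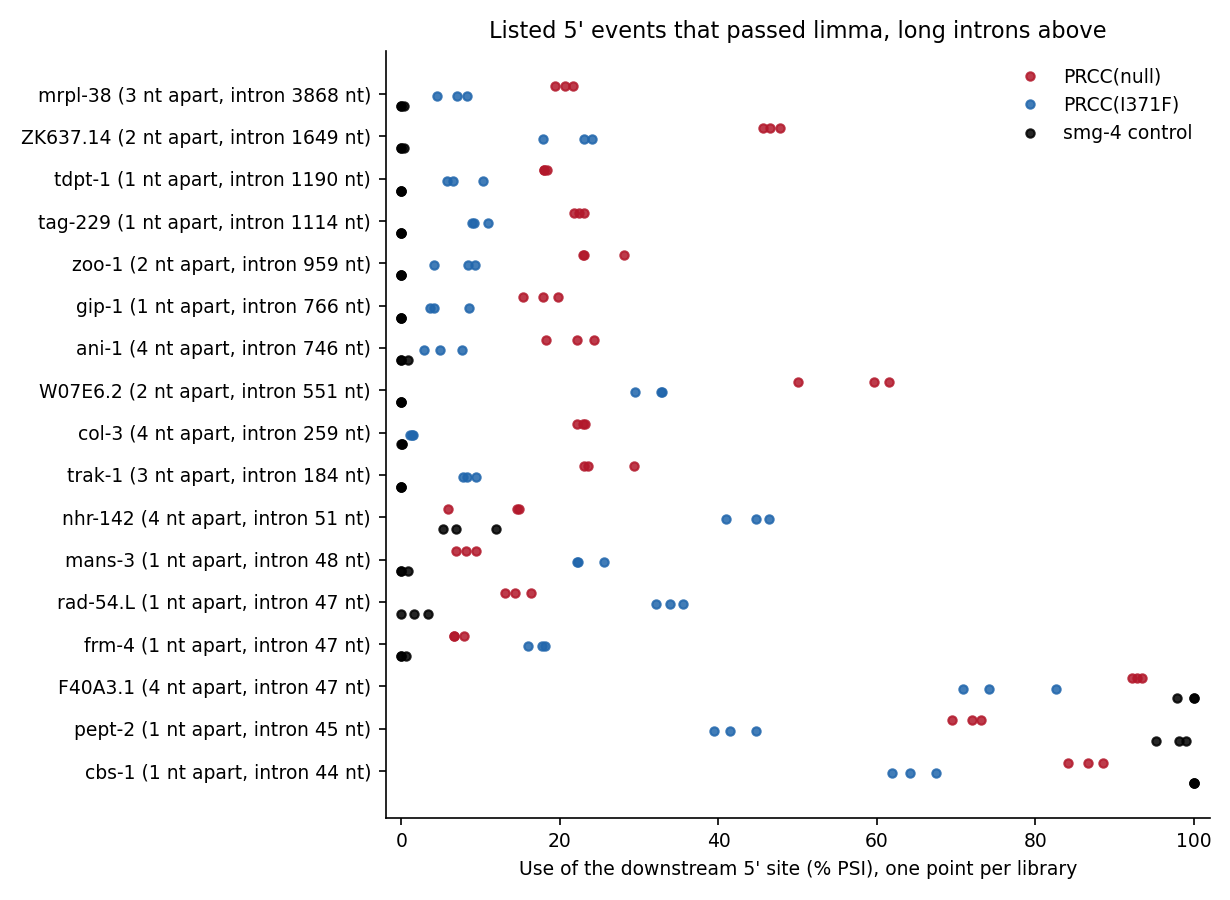
Use of the downstream 5' site (% PSI) in each library of PRCC(null), PRCC(I371F) and the smg-4 control, for genes in the study's 5' list that passed limma among events between 0 and 100%, ordered by intron length. In introns of 184 to 3868 nt PRCC(null) lies farther from the control than PRCC(I371F), and in introns of 44 to 51 nt it lies nearer.

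Genes used as examples of 5' shifts in the study were looked at next, and none passed limma. T21H3.9 (chromosome V, 17655665 to 17655863, minus strand, 1 nt to UU, intron of 63 nt) had 40.5%, 31.8% and 37.0% in PRCC(null) and 56.4%, 54.5% and 50.7% in PRCC(I371F). Its libraries did not overlap, the control was at 1.35% to 2.22%, and the limma adjusted p was 0.453 over the 6 libraries, 0.101 among events between 0 and 100% and 0.0779 with 15 libraries. In M60.6 (2 nt, intron of 290 nt) the downstream use was 45.9%, 54.1% and 54.7% in PRCC(null) and 52.9%, 59.6% and 60% in PRCC(I371F). In spas-1, a spastin homologue (2 nt, intron of 100 nt), it was 54.4%, 62.5% and 50% in PRCC(null) and 32.9%, 40.8% and 54.0% in PRCC(I371F). In cec-10, a chromodomain protein gene (chromosome I, 2 nt, intron of 2003 nt), it was 75.3%, 76.2% and 84.7% in PRCC(null) and 74.8%, 79.3% and 74.5% in PRCC(I371F). In M60.6, spas-1 and cec-10 the libraries overlapped (limma adjusted p of 0.793, 0.647 and 0.901).

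The study's 5' lists, matched to 162 of 166 lines, were described by counts. Of 46 matched events listed for PRCC(null) and not PRCC(I371F), 46 had the higher mean in PRCC(null), with no overlap of libraries at 42 and a median difference of 11.8 points. Of 25 listed for PRCC(I371F) and not PRCC(null), 6 were higher and 19 lower in PRCC(null), with a median of -9.73 points. Of 42 listed for both strains, 24 were higher and 18 lower, with a median of 2.93 points. Membership of a list depends on the PRCC values, so these directions were partly set by the choice. Over all 16967 5' events the median was 0.0711 points, with no overlap at 1944 events higher in PRCC(null) and 918 lower. Of the 46 events listed for PRCC(null) alone, 43 lay in introns of 100 nt or more, and of the 25 for PRCC(I371F) alone, 23 lay in introns under 100 nt.

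Fewer 3' events differed. Of 12731 tested, 39 (0.306%) passed limma, and 25 (0.196%) also differed by over 20 points, 14 with higher use of the upstream site in PRCC(null) (0.11%) and 11 with lower use (0.0864%). At all 25 events the libraries of 1 strain all stood at 0 or at 100%. None of the 3170 events between 0 and 100% passed limma (0%), while 489 had an unadjusted p under 0.05 (402 higher in PRCC(null)), and the 15-library fit called 12 of 11814 (0.102%), 5 higher (0.0423%) and 7 lower (0.0593%). The study's criterion was passed by 61 3' events (0.459% of 13286), 42 higher (0.316%) and 19 lower (0.143%), and by 129 to 158 with any 1 library left out. Without PRCC(null) replicate 3 the count of 25 was 7, and without PRCC(I371F) replicate 3 it was 41. With 15 libraries 17 to 35 events passed with a PRCC library left out.

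The 3' event with the smallest limma p was on chromosome X at 11201944 to 11202257 (plus strand, 18 nt). The upstream site was used at 63.8%, 76.7% and 65.5% in PRCC(null) and at 0% in each PRCC(I371F) library (limma adjusted p = 0.0193), beside 58.7% and 62.3% in the 2 control libraries with a score. The stretch around it, at 11199640 to 11203042, holds 76 scored 3' events and 54 scored 5' events. At 46 of the 3' events and 44 of the 5' events the sites are a multiple of 9 nt apart. Reads from a repeating sequence may be placed in more than 1 of its units, so the event is uncertain.

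Upstream 3' sites that the control uses under 10% were used more in PRCC(null). Here too the authors found the events in the reads of all libraries together. Over 4119 events scored in all 15 libraries, the mean use was 2.96%, 2.90% and 2.98% in PRCC(null) and 2.44%, 2.5% and 2.23% in PRCC(I371F). It was 2.92%, 2.96% and 2.48% in KIN17(K23N), and 1.69%, 1.37% and 1.65% in the control. At 9 nt (352 events) it was 3.89%, 3.78% and 3.37% in PRCC(null) and 2.61%, 2.80% and 2.17% in PRCC(I371F), while at 6 nt and at 3 nt the strains overlapped. At 1 to 5, 7 to 8, 10 to 18 and 19 to 50 nt all PRCC(null) libraries lay above all PRCC(I371F) libraries. The share of 3' values at 0 or 100%, larger in PRCC(I371F), moved with this difference, and its part in it was not tested.

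Most 3' events that the study lists for KIN17 had higher use of the upstream site in PRCC(null) than in PRCC(I371F). These lists rest on KIN17 and control libraries, not on either PRCC strain. The study proposes that its 3' changes are indirect, from altered amounts of germline in mixed-stage cultures. In its synchronized larvae, atx-2 and lmd-1 did not differ between the control and the mutant strains. It also counted the fewest progeny in PRCC(null). The mixture of stages could not be checked here, and its part in the 3' differences was not tested. Of 101 matched events listed for KIN17(K23N), 96 had the higher mean in PRCC(null), and the median difference was 9.52 points (quartiles 5.38 and 12.1). The median level was 53.3% in PRCC(null) and 43.6% in PRCC(I371F), beside 63.4% in KIN17(K23N) and 32.0% in the control. Libraries did not overlap at 50 of them, 49 higher in PRCC(null) and 1 lower, and no event passed limma in any of the fits (background 0.306%). Over all 13286 3' events the median was 0.0616 points, with no overlap at 1058 events higher and 412 lower.

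The KIN17(M107I) list is not a separate one, since all 23 of its matched events are among the 101 (22.8% of them) and both lists share the control libraries. In it 22 of 23 events were higher in PRCC(null), with a median of 11.0 points. The 34 matched 3' events listed for PRCC(null) were all higher in it, with a median of 12.5 points, but that list was chosen on its values, and 31 of its events (91.2%) are also among the 101 (30.7%). atx-2, the ataxin-2 homologue (chromosome III, 10467088 to 10467281, plus strand, 8 nt), had an upstream use of 58.7%, 58.0% and 58.2% in PRCC(null) and 40.5%, 49.0% and 31.1% in PRCC(I371F), beside 22.2% to 29.9% in the control (limma adjusted p = 0.669). panl-3, a subunit of the PAN deadenylase (chromosome III, 9819793 to 9820145, plus strand, 6 nt), had 67.1%, 64.7% and 67.1% in PRCC(null) and 47.4%, 65% and 48.8% in PRCC(I371F) (limma adjusted p = 0.669). The atx-2 libraries did not overlap and the panl-3 libraries did.

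**Figure D5:**
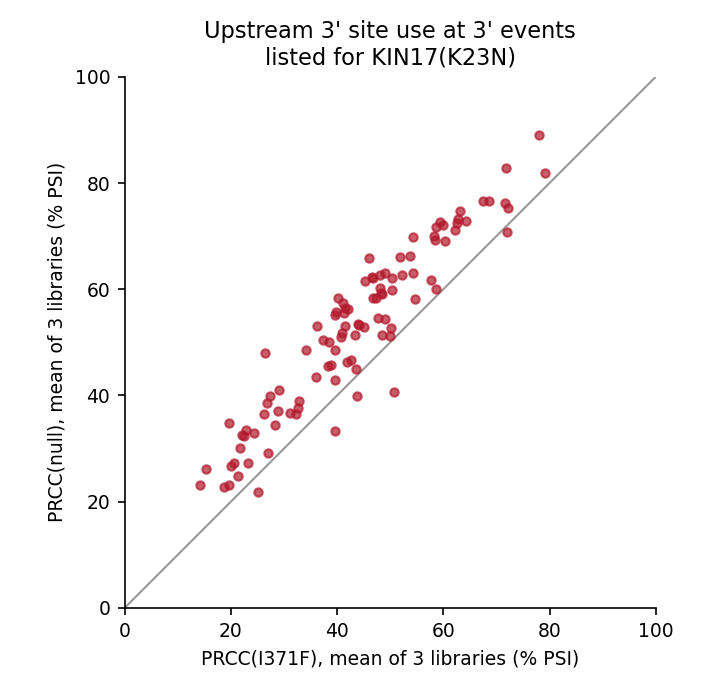
Mean use of the upstream 3' site (% PSI, mean of 3 libraries) in PRCC(null), vertical axis, against PRCC(I371F), horizontal axis, at the 101 3' events that the study lists for KIN17(K23N). The grey line marks equal use. 96 of the points lie above it.

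Annotated events outside these classes differed rarely. Of 1994 tested, 3 (0.15%) passed limma, and 2 (0.1%) also differed by over 20 points, both lower in PRCC(null) and none higher (0%). An alternative first exon on chromosome II (12280598 to 12283753) had a PSI of 65.6%, 65.8% and 61.4% in PRCC(null) and 97.2%, 95.0% and 95.7% in PRCC(I371F), with a control mean of 99% (limma adjusted p = 0.0208). A skipped exon on chromosome III (7981300 to 7982794) had 77.8%, 77.8% and 71.4% in PRCC(null) and 100% in each PRCC(I371F) library (limma adjusted p = 0.004). The control had 100%, 100% and 50% there, and with 15 libraries the limma adjusted p was 0.227. The third was an intron on chromosome III (8381056 to 8381469), retained at 100% in PRCC(null) and at 96.4%, 96.2% and 94.9% in PRCC(I371F). The count of 2 was 0 without PRCC(I371F) replicate 2, 4 without PRCC(null) replicate 2 and 8 without PRCC(I371F) replicate 1.

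With all 15 libraries 32 of 1918 annotated events passed (1.67%), 19 higher in PRCC(null) (0.991%) and 13 lower (0.678%). Retained introns made up 14 of them, 13 with more retention in PRCC(null) and 1 with less, and skipped exons 10, 4 higher and 6 lower. Entries of the same locus were counted separately. Several of the higher skipped exons overlap on chromosome III (4197259 to 4200098). A retained intron and an alternative last exon share a stretch of chromosome X (4677323 to 4677904). The study's criterion was passed by 19 events (0.795% of 2391), 11 higher (0.46%) and 8 lower (0.335%), and by none of the mutually exclusive exons. Some of these 19 also share a locus, so they are not separate results. For skipped exons and retained introns PSI rests on scores whose sum is often below that of the other classes, so their values are less certain.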

How the data were processed

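Reads of polyA-selected, strand-specific libraries were trimmed with cutadapt and aligned by the authors with Bowtie2 and STAR, in a version changed to treat introns that start with UU like those that start with GU, and handled with SAMtools (genome build ce10, versions not given in the sources used here). The authors deposited, for each event and library, a score for each of its forms and no read counts. The score can be read as PSI times 1000 where the scores of both forms sum to 1000. PSI was taken as the included score over the sum of both scores. Scores just inside the ends of the scale were read as 0 and 100%. The sums reached 1000 at all 5', 3', first exon and last exon events. They did so at only 22.1% of the skipped exon and 38.0% of the retained intron values. For multiple skipped exons it was 38.2% and for mutually exclusive exons 10.6%.

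The log2 odds of PSI, with 0.01 added to PSI and to 1 - PSI as fractions, entered limma 3.58.1 (R 4.3.3) with the trend and robust options, with Benjamini-Hochberg adjustment over all events tested of the 5', 3' or annotated class. Events at 0 in all 6 libraries or at 100% in all 6 were left out. Steps were tested on simulated data. There the fit over all events called more unchanged events than its adjusted p allows, and the fit limited to events between 0 and 100% did not. The simulation used an assumed read depth for each event and an assumed spread between replicates, since the real depth is unknown. Its result may therefore not hold for these data. Exact permutation tests cannot go below 0.1 for 3 against 3 libraries. Replicates were separate RNA isolations, 3 for each strain. The events named were the 10 with the largest difference in each direction that passed limma and the study's criterion (values of a few are given), annotated events that passed both, example genes of the study and its listed events. Gene names come from the study's event list and, for atx-2 and panl-3, RefSeq locus tags. The lmd-1 event was not matched. Of 332 listed lines, 321 matched an event within 4 nt. The strains, gene lists and comparisons were chosen with earlier results of these data known. The alternatives tried were other offsets, untransformed PSI, other samples, filters and thresholds, and leaving out each library.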

Additional observations from a re-analysis of the deposited data

How the results depend on the processing

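No paired analysis was possible because the library numbers of the strains do not overlap and the replicate numbers mark no shared culture or day. The 37 5' events past limma and 20 points became 17 with an offset of 0.05, 0 on untransformed PSI, 17 between 0 and 100%, 187 with no threshold on the difference, 71 over 10 points, and 7 to 69 with a library left out. The 120 5' events past the study's criterion became 75 with differences over 20 points, 42 among events scored in all 15 libraries, 21 between 0 and 100%, and 214 to 286 with a library left out. The 25 3' events became 2 with 15 libraries, 6 with an offset of 0.05, 1 on untransformed PSI, 0 between 0 and 100%, 39 with no threshold, and 7 to 41 with a library left out. The 61 3' events past the criterion became 27 among events scored in all 15 libraries, 5 between 0 and 100%, and 129 to 158 with a library left out. The 2 annotated events became 7 with 15 libraries, 1 on untransformed PSI, 1 with constant events kept, 1 between 0 and 100%, and 0 to 8 with a library left out, and the 19 past the criterion became 10 with differences over 20 points, 12 between 0 and 100%, and 25 to 34 with a library left out.

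Alternatives for the counts of 198, 0, 12 and 1237 events were chosen after seeing the data, as were those that drop the 20-point threshold from the medians and the share. Among events between 0 and 100%, the 198 5' events became 437 and the 0 3' events 5 when the spread came from all 15 libraries, and the 198 became 1 to 20 with a library left out. The 12 3' events of the 15-library fit became 17 to 35 and its 1237 5' events 1165 to 1339. The median intron of 259 nt was 107.5 to 553.5 nt with a library left out and 172.5 nt with 15 libraries and no threshold. That of 156.5 nt was 76 nt by the criterion, 68 to 180 nt with a library left out and 65 nt with no threshold. With no threshold it was 51 nt between 0 and 100% and 52 nt with 15 libraries. The share of 5' events higher in PRCC(null), 40.5%, was 55% by the criterion and 62.6% with no threshold. With no threshold it was 85.9% between 0 and 100% and 82.6% with 15 libraries, and with the threshold kept 82.4% (14 of 17) and 54.5% (18 of 33). The cause of these differences was not tested.

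Of 104 single events, 46 lost their call on untransformed PSI and 27 with an offset of 0.05. Of the 70 tested with 15 libraries, 30 gained and 10 lost a call. Of 624 values with a library left out, 177 lost the call, 5 gained it and 1 reversed. For cec-10 the difference of 2.56 points was -0.424 to 4.27 points with a library left out, the lowest without PRCC(null) replicate 3. The unknown depth limits what events at 0 or 100% can show.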

Other observations

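The KIN17 strains are given as levels. At sites 4 nt apart in long introns used under 10% in the control, the mean downstream use was 0.610% in KIN17(M107I) and 0.495% in KIN17(K23N), beside 0.393% in the control. At 2 nt it was 2.97% in KIN17(M107I) and 3.53% in KIN17(K23N), beside 0.434% in the control. For distances of 25 to 50 nt in long introns (423 events) the mean was higher in PRCC(null) than in PRCC(I371F) at 244 events and lower at 164.

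Among 5' events between 0 and 100%, the largest difference was at an event of no listed gene on chromosome II (8104696 to 8104872, minus strand, 3 nt, intron of 43 nt), chosen after its values were seen. The downstream site was used at 77.8%, 72.4% and 69.0% in PRCC(null) and at 31.0%, 7.69% and 18.8% in PRCC(I371F), while the control had 74.5%, 76.3% and 84.9% (limma adjusted p = 0.0295 among events between 0 and 100%). The PRCC(I371F) libraries lay below all control libraries there, and the PRCC(null) libraries overlapped the control.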
